A study of Mus musculus with 12 samples.

Results

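Splicing factor gene promoters were compared for the presence and the width of YY1 binding sites in mouse bone marrow progenitor cells. The genes were all protein-coding genes of the GENCODE M21 annotation (mouse build mm10, also called GRCm38) on chromosomes 1 to 19 whose symbol begins with Srsf, Hnrnp, Sf3a, Sf3b or Snrp, without Snrpn. The rule gave 50 of 20807 autosomal protein-coding genes, of which 11 were Srsf, 19 Hnrnp, 9 Sf3 and 11 Snrp genes. No measured value entered the rule, but the families were chosen with earlier results of these data known.

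YY1 was measured by chromatin immunoprecipitation and sequencing (ChIP-seq) in lineage-negative (Lin-) bone marrow cells, which are the stem and progenitor cells left after removal of cells with markers of mature blood lineages. The libraries came from 3-month-old female mice of strain 129Sv4/Jae x B6, 2 wild type (WT) and 2 with Xist deleted (XistΔ/Δ). The deletion joined a floxed Xist allele (2lox) with a Vav-iCre transgene, whose blood-specific promoter drives the recombinase, and the labels do not say whether WT mice carried it. The series has 12 samples, of which the 8 of histone marks were not used here. Lists of binding sites hold no level of a marker gene, so the cell type was not checked against markers.

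The spliceosome removes introns from precursor RNA, and its U1 and U2 particles mark the 5′ splice site and the branch point. Snrp genes encode proteins of these particles, most of them members of the Sm ring that sits on the small nuclear RNA, and Sf3a and Sf3b genes encode the complexes that hold U2 at the branch point. Srsf genes encode SR proteins, which bind exons and mostly promote their use, while Hnrnp genes encode heterogeneous nuclear ribonucleoproteins, which coat nascent RNA and often oppose SR proteins. YY1 is a zinc-finger factor found near the transcription starts of many housekeeping genes. It also binds the Xist gene, and the Hnrnpu and Hnrnpk proteins bind Xist RNA.

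YY1 recognises a short core, searched here as AANATGGC on both strands. In the 12 windows of 30 bases that follow, read from the GRCm38 genome on the strand of the gene, capitals mark that core or its reverse complement. They are shown because each lay within a YY1 peak region and within 273 bases of the 5′ end of the gene record, among the members with a promoter sequence described further on.
Srsf2: gtggcgcgggcGCCATTTTgtaagggtggg
Srsf3: ggggcgccgccGCCATTTTgtgactttcgg
Hnrnpa1: aaatgcaggtcGCCATTTTgtcctcatagt
Hnrnpa2b1: atgagttattaAAAATGGCatggcgaggcc
Hnrnpc: ggagctcggggGCCATTTTgtgaggagacg
Hnrnpd: ttcttccgtcgGCCATTTTaggtggtccgc
Hnrnpul1: aggcggcggcgGCCATCTTgagccgccgcc
Sf3a1: tctgggtcgccGCCATCTTgtcattgagtt
Sf3b1: ttcgagtggacAAAATGGCgaagatcgcca
Sf3b2: ttcttgtggctAAGATGGCggcggagcatc
Sf3b3: actccacctccGCCATCTTggctcccggtg
Sf3b6: atcagcccgccAAGATGGCgatgcaagcgg

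These windows lie at chr11:116853124-116853153 on the minus strand (Srsf2), chr17:29032890-29032919 on the plus strand (Srsf3), chr14:52103989-52104018 on the minus strand (Hnrnpc) and chr5:99978921-99978950 on the minus strand (Hnrnpd). Hnrnpa1 has its window at chr15:103240658-103240687 on the plus strand and Hnrnpa2b1 at chr6:51469623-51469652 on the minus strand. Hnrnpul1 has its window at chr7:25754750-25754779 on the minus strand and Sf3a1 at chr11:4160373-4160402 on the plus strand. The remaining Sf3 windows lie at chr1:55027351-55027380 on the minus strand (Sf3b1), chr19:5295379-5295408 on the minus strand (Sf3b2), chr8:110847037-110847066 on the minus strand (Sf3b3) and chr12:4817776-4817805 on the plus strand (Sf3b6). By annotation, the core overlapped an untranslated region in Hnrnpc, Hnrnpd and Sf3a1, an exon of a noncoding transcript in Srsf3 and Hnrnpa2b1 and a coding exon in Sf3b1, Sf3b2 and Sf3b6, and it lay in an intron in Hnrnpa1 and outside the gene in Srsf2, Hnrnpul1 and Sf3b3. In Sf3b1, Sf3b2 and Sf3b6 the ATG of the core is the annotated start codon of the gene itself.

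The authors called peaks in each library separately with HOMER, which joined 500 bp peaks into regions of variable length. A tag is an aligned read as HOMER counts it, given here in M. Replicate 1 was the shallower library in both genotypes, with 24.9 M tags in WT and 23.1 M in XistΔ/Δ, against 50.0 and 59.5 M in replicate 2, and the lists held 9553 and 10075 against 15933 and 18113 peaks. The deposited score is 1 for every peak, so width served as the graded value and stands here for the extent of a site, not for its strength. The order of the deposited list was used only in alternatives. Width also moved with depth, since the widest promoter peak was wider in replicate 2 than in replicate 1 for 44 of 45 members in WT and 47 of 47 in XistΔ/Δ. Widths are therefore given with their percentile among all peaks of the same library, and values are compared within a replicate number. At the 5′ end of Xist the WT lists held peaks of 3083 and 3222 bp, and neither XistΔ/Δ list held a peak there, in keeping with the genotype labels.

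A promoter peak was a peak within 3 kb of any transcript start of the gene, and the widest was taken where there were several. Of the 50 splicing factor genes, 45 had a promoter peak in WT replicate 1, 49 in WT replicate 2, 47 in XistΔ/Δ replicate 1 and 49 in XistΔ/Δ replicate 2. In all, 45 (90.0%) had one in all 4 libraries, beside 37.1% of all autosomal protein-coding genes, and 49 (98.0%) had one in at least 1 library, beside 51.7%. Genes with CpG-rich promoters are a closer background, since 41 of the 44 members with a promoter sequence (93.2%) were CpG-rich against 51.3% of all genes. Among 8055 such genes, a background added after the data were examined, 62.6% had a promoter peak in all 4 libraries and 80.4% in at least 1.

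The families differed in the libraries that lacked a peak. All 19 Hnrnp promoters held a peak in every library. At the 5′ end of the gene record alone 18 did, since Hnrnpf had no peak there in WT replicate 1. Among Srsf genes, 10 of 11 had a promoter peak in every library, and Srsf12 had no promoter peak in any library. Among Sf3 genes, 8 of 9 did so, and Sf3a3, a subunit of SF3a, lacked a peak only in WT replicate 1, with widths of 784, 626 and 789 bp in WT replicate 2, XistΔ/Δ replicate 1 and XistΔ/Δ replicate 2.

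Snrp genes were the family with the most missing peaks, with 8 of 11 covered in all 4 libraries and 8, 11, 9 and 11 of 11 in WT replicates 1 and 2 and XistΔ/Δ replicates 1 and 2. Snrpa, which encodes the A protein of U1, had peaks of 1651 and 1483 bp in the replicate 2 libraries of WT and XistΔ/Δ and none in replicate 1. Snrpb2, which encodes the U2 B″ protein, likewise had peaks only in replicate 2, of 787 and 1024 bp. Snrpc, which encodes the C protein of U1, lacked a peak in WT replicate 1 and measured 763, 501 and 760 bp in WT replicate 2, XistΔ/Δ replicate 1 and XistΔ/Δ replicate 2. All 4 missing members of the Sf3 and Snrp families thus had a peak in both deeper libraries, and whether their sites fell under the calling threshold of the shallow libraries was not tested.

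Split by role, a grouping made after the values were seen, all 7 Sm ring genes (Snrpb, Snrpd1, Snrpd2, Snrpd3, Snrpe, Snrpf and Snrpg) had a promoter peak in all 4 libraries. Of the 4 Snrp genes for proteins particular to U1 or U2 (Snrpa, Snrpa1, Snrpb2 and Snrpc), only Snrpa1 did. This split holds only genes that the symbol rule matched. Snrnp70, a U1 gene that the rule does not match, had a promoter peak in all 4 libraries. In the Sf3 family, 6 of 6 SF3b genes and 2 of 3 SF3a genes had one in all 4 libraries.

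**Figure D1:**
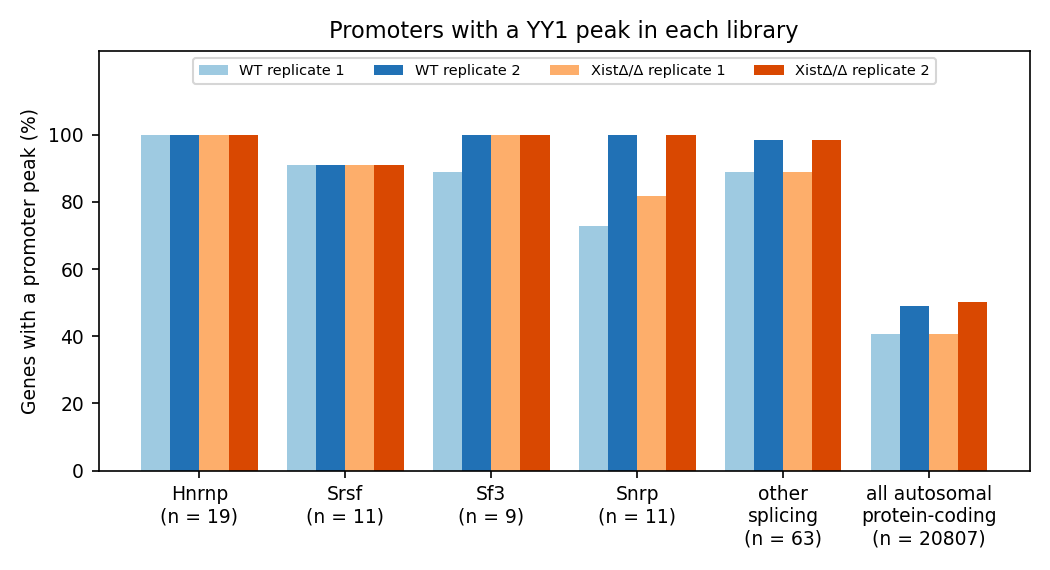
Bars give the percentage of genes with a YY1 promoter peak (y axis) in each of the 4 libraries for the 4 families, the other splicing genes and all autosomal protein-coding genes (x axis, number of genes in brackets). Hnrnp stands at 100% in every library, and the Snrp bars are at 72.7% and 81.8% in the replicate 1 libraries and at 100% in replicate 2.

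Width set the families apart. The median width of the widest promoter peak in Hnrnp genes was 2424, 2892, 2270 and 2864 bp in WT replicates 1 and 2 and XistΔ/Δ replicates 1 and 2, the order used for all values of 4 libraries from here on. In Srsf genes it was 1740, 2187, 1456 and 2157 bp, and in Sf3 genes 1329, 1819, 1198 and 1677 bp. Snrp genes had the narrowest peaks, with medians of 957, 1113, 903 and 1342 bp, close to the 1024, 1314, 902 and 1296 bp of all genes with a promoter peak. Genes with a CpG-rich promoter had medians of 1046, 1363, 917 and 1345 bp.

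The order Hnrnp, Srsf, Sf3, Snrp held in each of the 4 libraries. As a percentile among the peaks of the library, the family median averaged 97.1 ± 0.623 (SD, n = 4 libraries) in Hnrnp, 90.2 ± 1.85 in Srsf, 81.0 ± 4.62 in Sf3 and 63.1 ± 7.78 in Snrp, beside 65.6 ± 6.17 in all genes with a promoter peak. Over pairs of genes, the Hnrnp peak was the wider in 100%, 100%, 97.1% and 100% of Hnrnp and Snrp pairs. Neighbouring families overlapped more, since the Srsf peak was the wider in 65.0%, 58.9%, 63.3% and 73.3% of Srsf and Sf3 pairs. The widest 10% of the peaks of a library held 14, 16, 15 and 17 of the 19 Hnrnp promoters and none of the Snrp promoters in any library. Of all autosomal protein-coding genes with a promoter peak, 13.1%, 17.4%, 13.3% and 19.1% had one in that widest 10%. Genes are not replicates and the libraries share the same promoters, so no test was made between families.

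**Figure D2:**
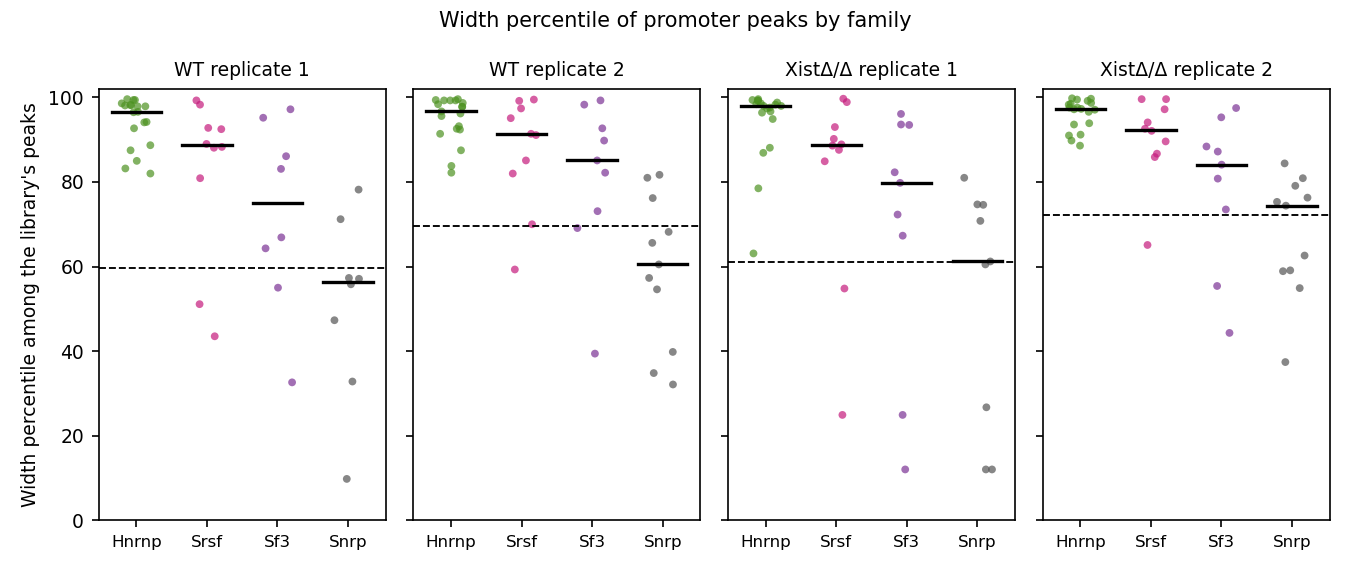
Each point is the width percentile of the widest promoter peak of 1 gene among all peaks of the library (y axis) by family (x axis), with 1 panel per library; thick bars are family medians and the dashed line is the median of all autosomal protein-coding genes with a promoter peak. Family medians fall from Hnrnp to Snrp in all 4 panels, and the Snrp median lies at 56.5 to 74.4 against 59.7 to 72.1 for all genes.

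Among Hnrnp genes, the mean percentile over the 4 libraries ran from 82.6 to 99.6. Hnrnpa2b1, an A/B-type hnRNP with RNA-recognition motifs, had the highest, with widths of 3790, 4577, 3196 and 4587 bp. Hnrnpl, which binds CA-rich RNA, measured 3630, 4035, 2851 and 5002 bp. In WT replicate 1 and both XistΔ/Δ libraries that widest peak lay beyond the 3′ end of Hnrnpl, in the region chr7:28822802-28827828. There it came within 3 kb of a late transcript start but covered none. Its centre lay 3809, 4228 and 4089 bp past the nearest start in WT replicate 1 and XistΔ/Δ replicates 1 and 2. At the 5′ end of the gene, in chr7:28808112-28812146, the Hnrnpl peak measured 3461, 4035, 1409 and 3761 bp, so that XistΔ/Δ replicate 1 stood far below the other libraries there.

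The lowest mean percentiles of the family belonged to Hnrnpll and Hnrnpm. Hnrnpll, a regulator of alternative splicing in lymphocytes, measured 1523, 2351, 917 and 2051 bp, and Hnrnpm measured 1584, 1694, 1174 and 1893 bp. In each genotype the shallow library gave the narrower peak of both genes. Hnrnpk, whose protein binds C-rich RNA and takes part in Xist-dependent silencing, measured 2673, 3175, 2472 and 2853 bp, all at percentile 97.2 or above. Hnrnpu, the nuclear matrix protein that anchors Xist RNA, is named after its values were seen and measured 2709, 4294, 2701 and 4099 bp. In Hnrnpu the WT and XistΔ/Δ values lay close together within each replicate number and further apart between numbers, while in Hnrnpk the ranges of the replicate numbers did not stand so far apart.

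Among Srsf genes, Srsf3 and Srsf2 were the widest. Srsf3, the smallest SR protein, measured 3408, 3946, 3449 and 4234 bp. Srsf2, an SR protein that is recurrently mutated in myeloid neoplasms, measured 2784, 4340, 2586 and 4392 bp, in a region (chr11:116849846-116854386) that spans the whole gene and starts of Mfsd11 on the opposite strand. At the other end stood Srsf9, with 791, 1079, 626 and 1947 bp, and Srsf11, with 900, 1319, 807 and 1144 bp. The widest Srsf11 peak lay in the region chr3:158031123-158032262 in replicate 1 and at the 5′ end, in chr3:158035785-158037103, in replicate 2. That 5′ region measured 761, 1319, 700 and 1144 bp. Srsf9 was the only Srsf gene in which XistΔ/Δ replicate 2 exceeded every other library by more than 800 bp, while XistΔ/Δ replicate 1 was its lowest.

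Among Sf3 genes, the 2 highest were Sf3b3, a large scaffold subunit of SF3b, with 2520, 3377, 1952 and 2497 bp, and Sf3b1, the SF3b subunit that clamps the branch point and is recurrently mutated in myelodysplastic syndromes, with 2238, 4005, 1732 and 2937 bp. In both genes each WT library was wider than the XistΔ/Δ library of the same number. Sf3b5, the smallest SF3b subunit, was the lowest with 685, 1302, 501 and 941 bp, and its peak covered no transcript start but lay wholly in an exon toward the 3′ end of the gene, so that it was no longer counted when the distance to a start was limited to 1 kb. Sf3b6, the subunit that contacts the branch point adenosine, followed with 935, 1409, 990 and 1320 bp.

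Snrp peaks were narrow in base pairs, with mean percentiles from 38.2 to 80.4. Snrpd3, an Sm ring gene, was the widest by mean percentile among those covered in all 4 libraries, with 1373, 1675, 1224 and 1551 bp. Snrpb, which encodes the SmB proteins, measured 1205, 1487, 1091 and 1690 bp. The lowest were Snrpg, the smallest Sm protein, with 501, 1049, 627 and 1026 bp, and Snrpa1, which encodes the U2 A′ protein, with 973, 754, 501 and 932 bp. A width of 501 bp is the most frequent in every list, so the Snrpg peak in WT replicate 1 and the Snrpa1 peak in XistΔ/Δ replicate 1 had the length of 1 unjoined peak. Snrpa1 was the only member wider in the shallow than in the deep WT library.

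**Figure D3:**
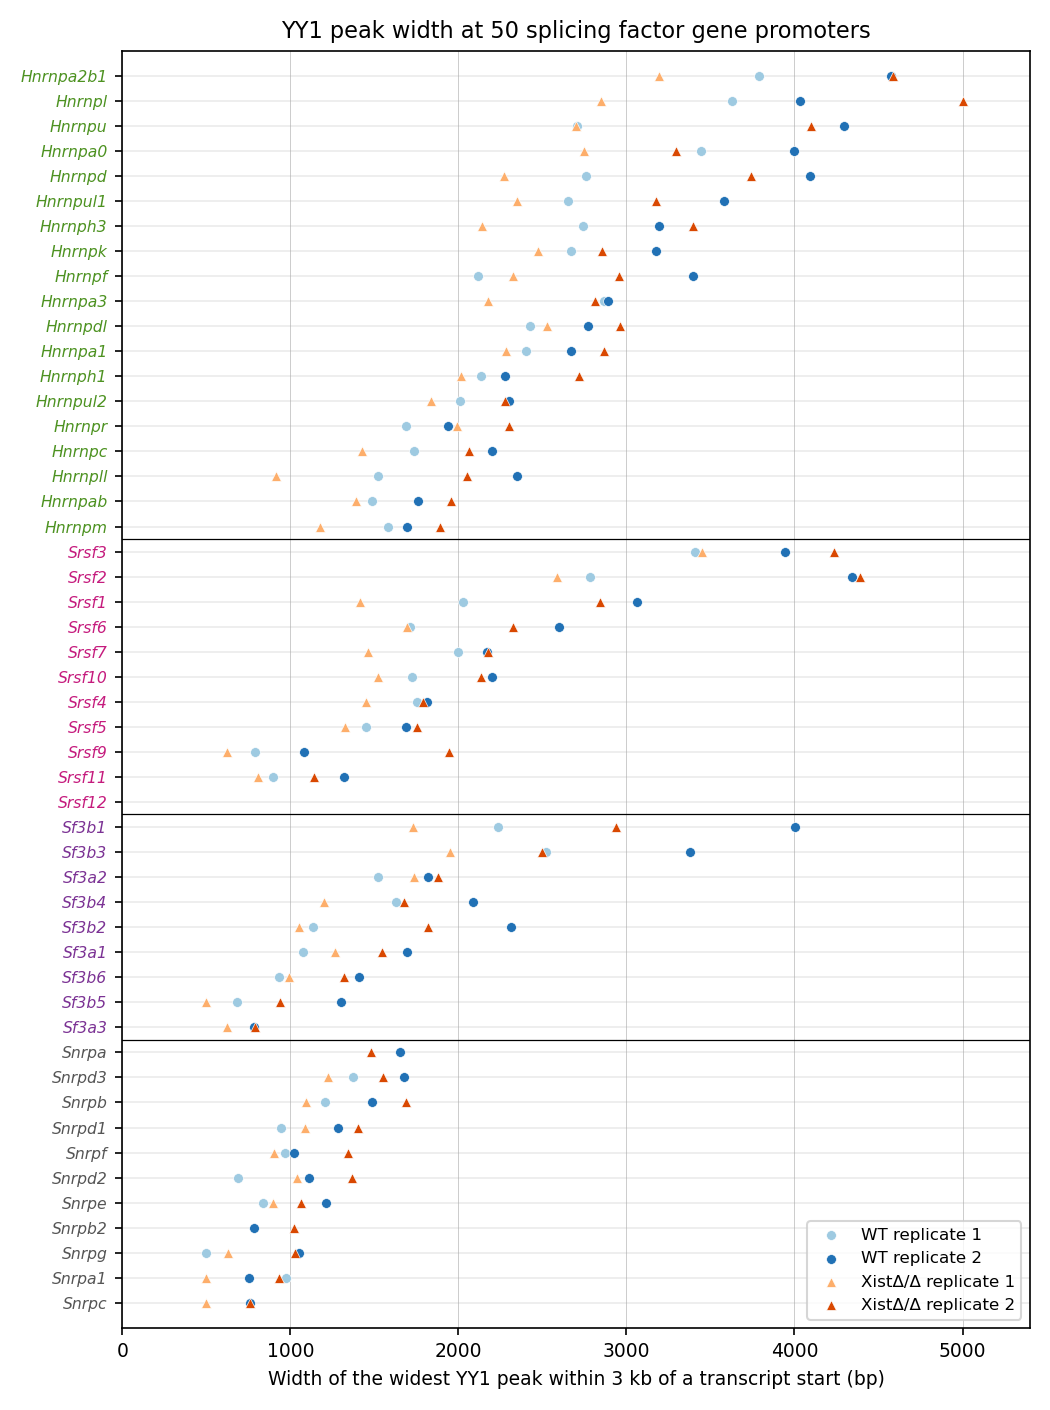
Each row is 1 of the 50 splicing factor genes, grouped by family and ordered by mean width, and the x axis is the width in bp of its widest YY1 promoter peak; circles are WT and triangles XistΔ/Δ libraries, pale for replicate 1 and dark for replicate 2. Hnrnp rows reach 5002 bp, no Snrp point passes 1690 bp, dark symbols lie to the right of pale ones of the same genotype in all rows but Snrpa1, and the Srsf12 row is empty.

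Most of these peaks lay over the start itself. The widest promoter peak covered a transcript start in 42 of 45, 48 of 49, 45 of 47 and 47 of 49 members, and its centre lay a median of 112, 45.0, 29.0 and 53.0 bp downstream of the nearest start. The peak centre fell in an exon in 20, 20, 30 and 23 members and in an intron in 15, 18, 11 and 16. The families also differ in annotation: Hnrnp genes have a median of 9 transcript starts, Srsf 6, Snrp 5 and Sf3 4, against 3 in all genes. Among genes with 4 to 7 starts and a peak in all 4 libraries, the median of the mean percentile was 97.4 in 6 Hnrnp, 90.9 in 6 Srsf, 87.5 in 3 Sf3 and 59.0 in 3 Snrp genes, beside 68.6 in 3230 genes. The part of the number of starts in the order of the families was not tested.

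Some promoters are shared with a neighbouring gene. Another protein-coding start lay within 3 kb of a start in 18 members, and in 16 of them it was on the opposite strand within 1 kb, as with Cbx3 at Hnrnpa2b1, Cbx5 at Hnrnpa1 and Cog4 at Sf3b3. Without these 18, a choice made with the values in view, the average family median was 95.8 in Hnrnp and 59.2 in Sf3, against 97.1 and 81.0 with them. Sf3 then kept 4 of its 9 members (Sf3a3, Sf3b1, Sf3b5 and Sf3b6) and stood below Snrp in both replicate 1 libraries, at 55.0 against 56.5 and at 46.1 against 60.5. In both replicate 2 libraries Sf3 stayed above Snrp, and Hnrnp and Srsf stayed first and second in all 4 libraries. With so few Sf3 genes left, the part of neighbouring starts in the order was not tested.

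RefSeq promoter sequences (GRCm38.p6) of 300 bases, from 250 before to 50 after the start, were held for 44 members and 15687 autosomal genes in all. Hnrnpll, Hnrnpul2, Sf3b4, Sf3b5, Snrpb and Snrpd1 had none. The median GC content of these promoters was 70.3% in Hnrnp, 69.0% in Srsf, 59.0% in Sf3 and 57.3% in Snrp. All genes had a median of 58.0%. This is the same order of families as for peak width, and the part of GC content in that order was not tested. The YY1 core stood in 5 of 44 (11.4%), against 7.54% of all promoters, in Srsf2, Hnrnpc, Hnrnpd, Hnrnpul1 and Sf3a1. In all 5 it read as the reverse complement on the strand of the gene, as the windows above show. The ETS core CCGGAAG stood in 16 of 44 (36.4%) against 13.6%, and in 6 of the 7 Sf3 promoters. The NRF1 core, a palindrome-like GC-rich motif, stood in 22.7% against 7.62%, and CCAAT, the NFY box, in 12 of 17 Hnrnp promoters and in 47.7% of all 44 against 41.7%. GGGCGG, the SP/KLF box, stood in 72.7% against 51.7%, and TATAAA in 13.6% against 14.4%. Members are richer in CpG, and in CpG-rich promoters the shares were 12.2% of 41 members against 9.50% of 8018 genes for YY1, 36.6% against 21.1% for ETS and 24.4% against 13.8% for NRF1, each closer than before. For NFY they were further apart, at 46.3% against 37.9%. The direction turned for TATAAA, at 12.2% against 4.85%, and for SP/KLF, at 73.2% against 78.7%.

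Most YY1 cores of these genes lay past the start. Within 500 bases on either side of the RefSeq start, 21 of 44 members (47.7%) held the core, against 18.5% of all genes, 21.2% of genes with a CpG-rich promoter and 28.3% of genes with a promoter peak in all 4 libraries. In the 500 bases before the start 7 members (15.9%) held it, beside 12.6% of the genes with a peak in all 4 libraries, and in the 500 bases from the start on 16 members (36.4%) did, beside 18.8%. By family, the downstream window held the core in 4 of 7 Sf3, 5 of 11 Srsf, 7 of 17 Hnrnp and none of 9 Snrp genes. A match is a run of letters and not a measured site, and the counts carry no test.

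Over whole peak regions the members differed from other regions in length more than in density of the core. Of 48 regions of members with a promoter sequence, 24 (50.0%) held the core at a median length of 2285 bp. The background was 28.7% of 10621 autosomal regions near transcript starts of any gene type, at 1324 bp. Per kilobase the members had 0.282 matches and all regions 0.254. The 9 Snrp regions held no match at a median length of 1238 bp, and the 7 Sf3 regions held 5 matches (0.316 per kilobase). Of the 34 matches in member regions 6 (17.6%) had their ATG at an annotated start codon, against 14.1% of 4159 matches in all regions. These were at Sf3b1, Sf3b2, Sf3b6 and Hnrnpm in the gene itself, and at Sf3b3 and Hnrnpa2b1 in reverse complement outside the gene. The letters AANATGGC hold an ATG followed by G, which many start codons also have, and the part of this in the matches was not tested.

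**Figure D4:**
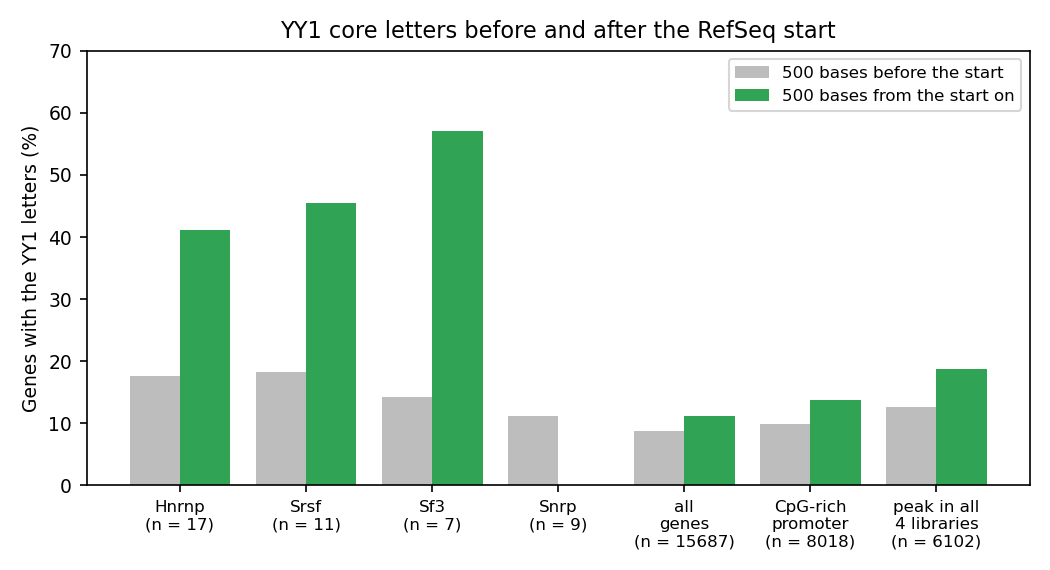
Bars give the percentage of genes (y axis) with the YY1 core letters in the 500 bases before (grey) and the 500 bases from (green) the RefSeq start, by family and in 3 backgrounds (x axis, number of genes in brackets). The green bar is above the grey in Hnrnp, Srsf and Sf3 and at 0 in Snrp, and it stands at 18.8% in genes with a promoter peak in all 4 libraries.

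The last comparison asked whether Xist deletion moved YY1 at these promoters. Peaks of the 4 lists that overlapped were merged, which gave 59 regions near member starts, none shared by 2 members, of which 55 were found in at least 2 libraries and 48 in all 4. Width percentiles were taken here among the merged regions found in at least 2 libraries, with 0 for a region without a peak in the library. They therefore differ from the percentiles among peaks given earlier. A region was called higher or lower in XistΔ/Δ when its percentile was so within both replicate numbers. By this rule 14 of 55 member regions (25.5%) were higher, beside 20.6% of 10621 autosomal regions near transcript starts of any gene type. In the other direction 12 (21.8%) were lower, beside 21.7%. The member shares lay near those of all regions in both directions, although with the order in the deposited list as the rank 20 member regions (36.4%) were lower, beside 22.8% of all. A peak in both XistΔ/Δ lists and no WT list was found in 0 member regions, beside 0.829% of regions, and the reverse in 0, beside 0.292%.

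The pairs did not point the same way. In replicate 1, the XistΔ/Δ percentile was the higher in 32 of 55 member regions (58.2%, beside 41.0% of all regions). It was the lower in 18 (32.7%, beside 42.3%). The higher ones included regions of Sf3a3, Hnrnpf and Snrpc without a peak in WT replicate 1, at differences of 48.6, 40.6 and 40.6 points. In replicate 2 the XistΔ/Δ percentile was the higher in 22 (40.0%, beside 48.6%) and the lower in 33 (60.0%, beside 51.3%). By family, 4 of 11 Snrp regions were higher and 0 lower, 1 of 9 Sf3 regions was higher and 4 lower, 6 of 24 Hnrnp regions went each way, and 3 of 11 Srsf regions were higher and 2 lower. Both XistΔ/Δ libraries stood above both WT libraries in 2 member regions, of Snrpd2 and Hnrnpr, beside 11.5% of all regions. They stood below in 5, at Sf3b3, Sf3b4, Sf3b5, the 5′ end of Hnrnpl and Hnrnpll, beside 13.0%.

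Of the higher regions, the largest mean differences in percentile points were at 3 Sm ring genes. Points do not follow the change in width evenly. In log2 width, XistΔ/Δ minus WT, Snrpf and Snrpd1 differed by 0.146 and 0.167. Hnrnpr, also called higher, differed by 0.243 in log2 width at 6.05 points. The 5′ region of Hnrnpl, called lower, differed by −0.699 at −4.33 points. Snrpd2 (chr7:19148607-19149995) measured 689, 1113, 1039 and 1370 bp, at region percentiles of 55.7, 55.9, 79.5 and 68.7. Its XistΔ/Δ libraries did not overlap with WT, and the mean difference was 18.3 percentile points (two-sided exact permutation p = 0.333, the smallest that 2 against 2 libraries allow). Snrpf (chr10:93588721-93590065) measured 968, 1023, 903 and 1342 bp, with a mean difference of 9.79 points that came almost wholly from replicate 2 (1.49 points in replicate 1, 18.1 in replicate 2). Snrpd1 (chr18:10617265-10618698) measured 946, 1284, 1090 and 1405 bp, with a mean difference of 8.52 points. In Snrpf and Snrpd1 the genotypes overlapped once the replicate numbers were set aside.

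Of the lower regions, Sf3b5 (chr10:13007802-13009103) had the largest mean difference, of −18.1 points. Its percentiles were 55.6, 65.4, 40.6 and 44.2, with no overlap between genotypes (exact permutation p = 0.333). The Sf3b5 peak covered no transcript start in any library, and in XistΔ/Δ replicate 1 it measured 501 bp, the length of 1 unjoined peak. Hnrnpll (chr17:80060814-80063164) measured 88.7, 92.3, 74.2 and 88.6 as percentiles, a mean difference of −9.14, of which −14.5 in replicate 1 and −3.74 in replicate 2. Sf3b4 (chr3:96170990-96173133), an RNA-binding subunit of SF3b, measured 1629, 2086, 1198 and 1677 bp, with a mean difference of −6.86. In these regions the WT library was wider than the XistΔ/Δ library in each pair, but a difference of this kind has only 2 libraries a group behind it.

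**Figure D5:**
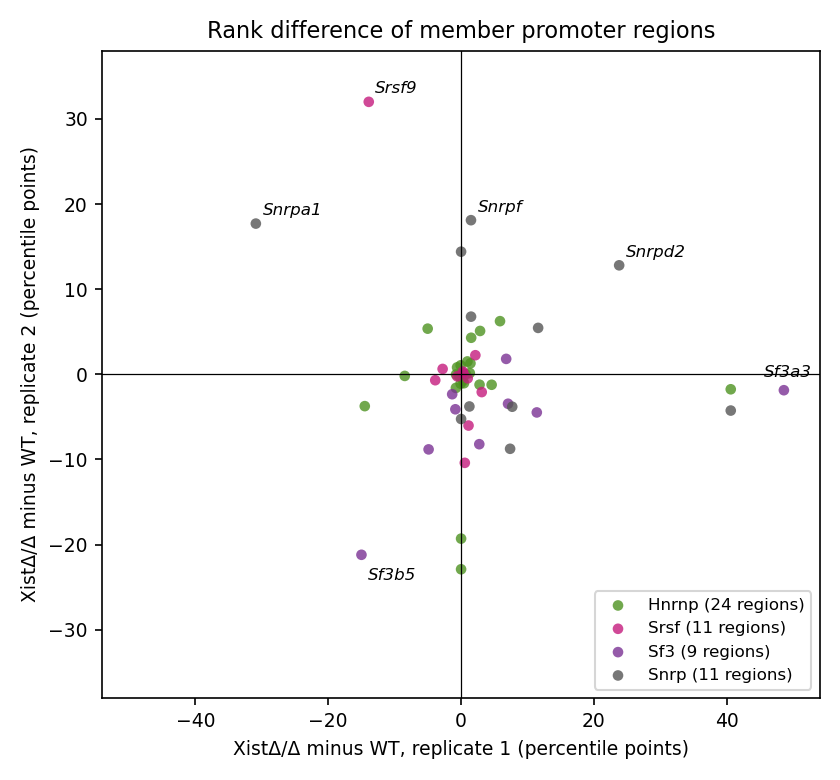
Each point is 1 of the 55 member regions, and the axes give the difference of its width percentile, XistΔ/Δ minus WT, in replicate 1 (x) and replicate 2 (y), coloured by family. Most points lie near 0, Snrpd2 lies at the upper right and Sf3b5 at the lower left. Srsf9 and Snrpa1 lie on opposite sides of 0 in the 2 replicates. A region without a peak in a library has percentile 0 there, as Sf3a3, Snrpc and 1 region of Hnrnpf have in WT replicate 1.

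The log2 width of the widest peak was also fitted with limma, with replicate number and genotype as terms. The fit used the 6990 autosomal regions near transcript starts of any gene type with a peak in all 4 libraries. No region was called at an adjusted p under 0.05 (0% of 6990), and none of the 48 member regions was. At an unadjusted p under 0.05 there were 267 regions and no member region. The median XistΔ/Δ minus WT difference was −0.10 on the log2 scale in member regions and −0.08 in all. The extremes among members were the 5′ region of Hnrnpl, at −0.70 ± 0.33 (SE, limma adjusted p = 0.894), and Snrpd2, at 0.45 ± 0.19 (adjusted p = 0.894). With 2 libraries a group and an SE near 0.19 for most members, a change in width of the size seen at Sf3b5 (−0.46 ± 0.18) was not detectable after adjustment.

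Beside the 4 families, 63 other spliceosome, SR protein kinase and exon junction genes were measured in the same way. Of these, 54 (85.7%) had a promoter peak in all 4 libraries and all 63 in at least 1, and their median width percentile averaged 77.7 ± 2.10 (SD, n = 4 libraries), under Hnrnp, Srsf and Sf3 and over Snrp. U2af2, the large subunit of the factor that binds the polypyrimidine tract, measured 2637, 2906, 1352 and 3356 bp, and its partner U2af1 1942, 2033, 1475 and 2166 bp. Prpf8, the core protein of U5, measured 1227, 1560, 1276 and 1676 bp. The peaks of both U2AF genes were narrowest in XistΔ/Δ replicate 1, as was that at the 5′ end of Hnrnpl. Peaks were generally narrower in that library, since 66.1% of all genes and 75.6% of members with a peak in both had a narrower peak there than in WT replicate 1.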

How the data were processed

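YY1 ChIP-seq peak lists of 4 Lin- libraries (2 WT, 2 XistΔ/Δ) were used. As the methods state, micrococcal nuclease cut the chromatin and reads were aligned to mm10. Per the file headers, the authors called peaks per library with HOMER (FDR 0.001, peak size 500 bp, 4.0-fold over local tags, no input named), so copy number and open chromatin also enter. The deposited score is 1 for every peak, and the rank had been planned for a score with width as its substitute. The submitters' processing notes name HOMER 4.9.1 and Bowtie2 2.3.5.1.

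Widths, percentiles, merged regions (at least 1 shared bp) and motif counts were computed in Python 3.11.15, and widths were fitted with limma 3.58.1 (Benjamini-Hochberg over all regions), tested on simulated data. Promoters were called CpG-rich above 50% GC and 0.6 observed over expected CpG. Members, families and gene lists were chosen with earlier results of these data known. Named were the 2 highest and 2 lowest members by mean percentile per family, members lacking a peak in a library, the 3 largest rank differences per direction, Srsf2, Sf3b1, Hnrnpk and Snrpb, and, of other splicing genes, U2af1, U2af2 and Prpf8. The study calls the replicates biological; what the replicate number marks is not stated. Header directory names number the replicates otherwise than the labels, which were followed.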

Additional observations from a re-analysis of the deposited data

How the results depend on the processing

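Peaks within 1 kb or 500 bp, at the 5′ end of the gene record alone, by peak centre, or from lists of equal length left 44 or 45 of 50 members covered in all 4 libraries (main 45). The first 50% of each list left 40, and 5 of 11 Snrp genes in place of 8 (Snrpa1, Snrpd2 and Snrpg dropped out). Leaving out a library gave 45 to 47. The average family median percentile moved by more than the spread between libraries of a genotype in Hnrnp under summed width (98.0), ranking among peaks near starts (96.5) and each region counted once (96.8), and in all members under ranking near starts (87.5). Members without another coding start gave 95.8 in Hnrnp, 59.2 in Sf3 and 87.5 in all members. Leaving out a library moved no family median by more than that spread.

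The genotype counts were the least stable. Without the replicate block, which drops the pairing by number, 14 higher and 12 lower regions became 2 (3.64%, beside 11.5% of all) and 5 (9.09%, beside 13.0%). Ranking by list order gave 20 lower regions (36.4%, beside 22.8% of all). Leaving out 1 replicate number gave 22 to 32 higher and 18 to 33 lower regions, beside 48.6% higher and 51.3% lower of all without replicate 1, and 41.0% and 42.3% without replicate 2. Regions with a peak in XistΔ/Δ alone numbered 0 to 4 when a library was left out. There were 4 without WT replicate 2, 3 without XistΔ/Δ replicate 1 and 1 without XistΔ/Δ replicate 2. Regions with a peak in WT alone numbered 0 in each of these settings. These counts admitted regions found in 1 library, and the share over all regions was not computed, so they are no result about the members. Without WT replicate 2 the only WT list left was the shallow one. Differences in log2 width between replicates correlated across 6990 regions between genotypes (r = 0.272, regions not independent), which with 2 pairs does not establish pairing. limma called no member region under any alternative, with or without the replicate block (0 of 48). With library medians subtracted it called 4 wider and 10 narrower regions of 6990.

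The YY1 core stood in 5 of 44 promoters, in 1 (2.27%, beside 2.24% of all) with AAGATGGCG, and in 21 within 500 bases of the start. Snrp promoters without a peak lacked it only in the shallower libraries. Width is no measure of occupancy, and 2 libraries a genotype limit every comparison of genotypes.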
